A study of Mus musculus with 6 samples.

Results

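The 10 genes described here make bile acids in the liver or carry the feedback that restrains their synthesis. They were taken by gene symbol from the deposited tables, which list 16426 genes in at least 1 library, and all 10 were found. Cyp7a1, Cyp8b1, Cyp27a1, Cyp7b1, Hsd3b7 and Baat encode enzymes of synthesis and conjugation, Nr1h4 and Nr0b2 encode the nuclear receptors FXR and SHP, and Fgfr4 and Klb encode the receptor pair for the gut hormone FGF15. All 10 passed the filter on low counts, and none had a fractional count in any library. RNA was sequenced from 6 livers of wild-type mice on a mixed B6:sv129 background, aged 7 to 12 weeks. Of these, 3 came from mice injected through the tail vein with AAV8 expressing a short hairpin RNA (shRNA) against S1pr2, and 3 from mice given AAV8 expressing a scrambled shRNA. AAV8 is a viral vector that reaches hepatocytes well; no label names the promoter that drives the hairpin. By the series text the mice were male and had the glucocorticoid dexamethasone in their water, about 0.84 mg/kg for 7 days. The library labels name the shRNA only, so both groups share this exposure as far as the text goes, and no untreated mice were analysed here.

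Bile acids are made from cholesterol in hepatocytes, either by the classic route, which CYP7A1 starts, or by the alternative route, which CYP27A1 and CYP7B1 start. Bile acids returning to the liver activate FXR, which induces SHP, and bile acids in the ileum induce FGF15, which acts on FGFR4 with its co-receptor beta-Klotho; both arms lower transcription of Cyp7a1. Conjugated bile acids are also known to activate S1PR2, a receptor of sphingosine-1-phosphate, on rodent hepatocytes, so the comparison of the shRNA groups bears on genes upstream of a ligand of the targeted receptor.

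The target was lower in every S1pr2 shRNA liver. S1pr2 stood at 3.04, 2.21 and 2.23 CPM (read counts scaled to the normalised library size) in S1pr2 shRNA livers 1 to 3, against 4.41, 5.23 and 6.66 CPM in scramble livers 1 to 3. The counts were few, 60, 36 and 38 in S1pr2 shRNA livers and 72, 84 and 110 in scramble livers. By edgeR the change in S1pr2 was a fall, at -1.12 log2 units (SE 0.24, adjusted p = 0.0301). The exact two-sided permutation test of CPM gave p = 0.1, the smallest that 20 assignments allow. The call was lost without S1pr2 shRNA liver 2 or 3 or scramble liver 2 or 3, with the replicate number as a block and on FPKM (adjusted p 0.00401 to 0.117 over 17 other edgeR, DESeq2 and limma settings). Libraries held between 16558775 and 17410160 counts. Whether each liver of a group is a separate animal is not stated in the labels, and the p-values speak only of the variation among these 6 samples, which may be technical. Over all genes, 7.66% passed the test (adjusted p under 0.05), 3.02% as rises and 4.64% as falls.

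Of the 10 genes, 1 passed the test: Klb, which was lower in the S1pr2 shRNA livers. Hsd3b7 came next, with the largest positive fold change of the 10, and missed the threshold by a small margin. In direction the genes were evenly split, with 5 fold changes above 0 and 5 below, and their median log2 fold change was 0.06, beside 0.01 for the 12230 genes tested. In 4 genes the groups did not overlap, with Hsd3b7 and Cyp27a1 higher and Nr1h4 and Klb lower in every S1pr2 shRNA liver, whereas 31.9% of all tested genes did not overlap (15.1% higher and 16.8% lower in all S1pr2 shRNA livers). An unadjusted p under 0.05 was reached by the same 4 genes and by 24.5% of all genes. In bulk liver, fewer cells of a type and less RNA per cell cannot be told apart.

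**Figure D1:**
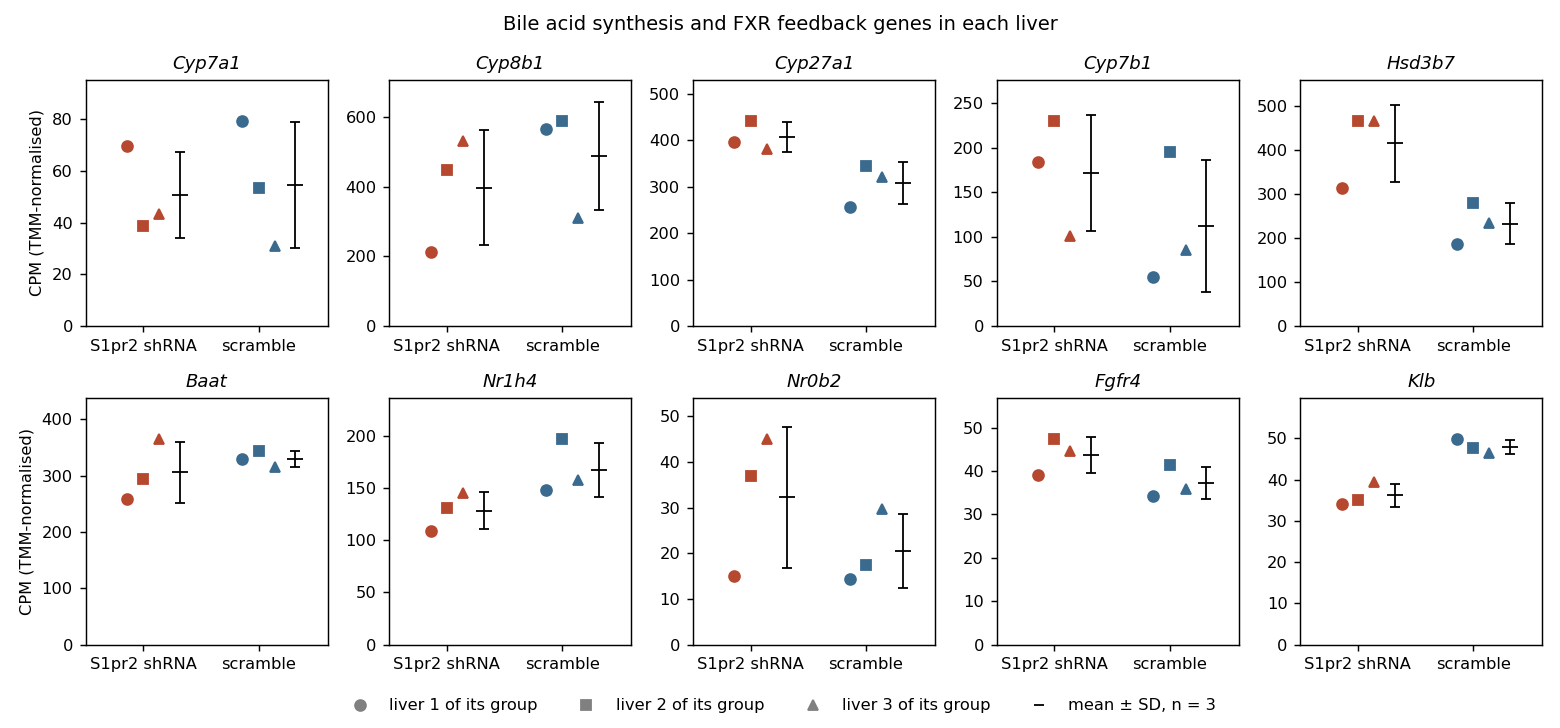
Normalised read counts (CPM, vertical axes starting at 0) of the 10 genes in each of the 6 livers, with S1pr2 shRNA livers on the left and scramble livers on the right of each panel; bars give the mean ± SD (n = 3 each). The groups are apart for Cyp27a1, Hsd3b7, Nr1h4 and Klb and overlap for the other genes.

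**Figure D2:**
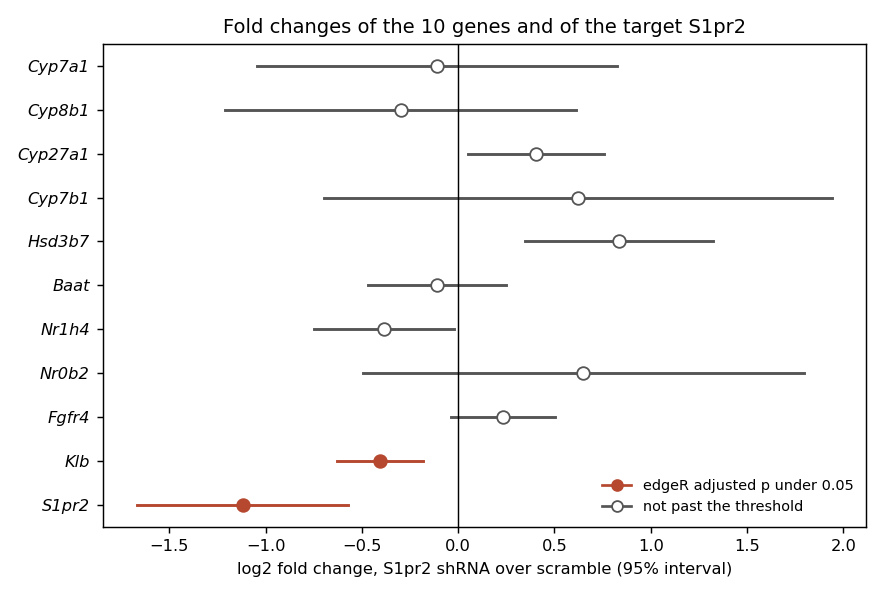
Log2 fold change of each gene, S1pr2 shRNA over scramble, with its 95% interval from the edgeR fit (n = 3 each). Only Klb, at -0.40, and the target S1pr2, at -1.12, are past the adjusted threshold; the intervals of Cyp7a1, Cyp8b1, Cyp7b1 and Nr0b2 are the widest.

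Compared per length, Hsd3b7, Cyp27a1, Cyp8b1 and Baat had the highest mean levels in both groups, and Cyp7a1 was near the bottom with Fgfr4 and Klb. In the S1pr2 shRNA livers the order by deposited FPKM (counts scaled to transcript length and library size) was Hsd3b7 (mean 238), Cyp27a1 (226), Cyp8b1 (210.1), Baat (163), Cyp7b1 (83.1), Nr1h4 (65.7), Nr0b2 (29.7), Fgfr4 (14.4), Cyp7a1 (12.9) and Klb (10.97). In the scramble livers it was Cyp8b1 (237), Baat (159), Cyp27a1 (154), Hsd3b7 (121), Nr1h4 (77.5), Cyp7b1 (48.2), Nr0b2 (17.4), Klb (13.1), Cyp7a1 (12.3) and Fgfr4 (11.1). In the S1pr2 shRNA livers the ranges of neighbours were apart between Baat and Cyp7b1, between Nr1h4 and Nr0b2 and between Nr0b2 and Fgfr4. In the scramble livers they were apart only between Hsd3b7 and Nr1h4. By mean, Hsd3b7 thus led the order in the S1pr2 shRNA livers and stood below Cyp27a1 in the scramble livers, but the ranges of these genes overlapped in both groups. Fgfr4 and Klb changed places at the lower end.

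Neither Cyp7a1 nor Cyp8b1, the enzymes of the classic route, differed between the groups by more than the spread between livers. Cyp7a1 (Entrez gene 13122), whose product is the rate-limiting enzyme of that route, stood at 69.7, 38.8 and 43.3 CPM in S1pr2 shRNA livers 1 to 3, against 79.5, 53.3 and 31.1 CPM in scramble livers 1 to 3. The highest and the lowest liver were both scramble livers, and the S1pr2 shRNA livers lay between them. Its log2 fold change was -0.11 (SE 0.38, edgeR adjusted p = 0.900), with a 95% interval of -1.04 to 0.83, which covers fold changes between 0.485 and 1.77. The sign turned to 0.09 on FPKM with a pseudocount of 0.1, to 0.26 without scramble liver 1 and to 0.05 without S1pr2 shRNA liver 2. On that FPKM scale the all-gene median was 0.16.

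Cyp8b1 (13124) encodes the hydroxylase that sends intermediates towards cholic acid. It stood at 213, 447 and 532 CPM in S1pr2 shRNA livers 1 to 3, against 566, 589 and 311 CPM in scramble livers 1 to 3. S1pr2 shRNA liver 1 was the lowest of the 6 and scramble liver 3 the next, and the groups overlapped. The log2 fold change was -0.30 (SE 0.38, edgeR adjusted p = 0.701; 95% interval -1.21 to 0.61). Without S1pr2 shRNA liver 1 it was 0.00 (edgeR adjusted p = 0.997).

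Hsd3b7 (101502), whose product oxidises the sterol ring of hydroxylated intermediates and serves both routes, was higher in every S1pr2 shRNA liver. It stood at 314, 466 and 466 CPM in S1pr2 shRNA livers 1 to 3, against 185, 278 and 234 CPM in scramble livers 1 to 3. The lowest S1pr2 shRNA liver was above the highest scramble liver. The means were 415 ± 87.5 CPM in S1pr2 shRNA and 233 ± 46.5 CPM in scramble livers (SD, n = 3 each), a 1.79-fold difference (log2 0.84, SE 0.21, 95% interval 0.35 to 1.32, edgeR adjusted p = 0.0531), which did not pass. It passed with the DESeq2 test (adjusted p = 0.00209), on FPKM (limma adjusted p = 0.0213 with a pseudocount of 0.1) and without S1pr2 shRNA liver 1 (edgeR adjusted p = 0.0306). On that FPKM scale its log2 fold change was 0.98 and the all-gene median 0.16. The adjusted p ran from 0.00209 to 0.171 over the 17 other settings, and the log2 fold change from 0.70 to 1.00.

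Among the enzymes of the alternative route, Cyp27a1 was steady between livers and Cyp7b1 was not. Cyp27a1 (104086), the mitochondrial sterol hydroxylase, stood at 398, 442 and 382 CPM in S1pr2 shRNA livers 1 to 3, against 257, 344 and 321 CPM in scramble livers 1 to 3. All S1pr2 shRNA livers were above all scramble livers, with a log2 fold change of 0.41 (SE 0.15, 95% interval 0.05 to 0.76, edgeR adjusted p = 0.152) that did not pass. On FPKM (pseudocount 0.1) it passed, at 0.56 (limma adjusted p = 0.0488), a scale on which the all-gene median was 0.16.

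Cyp7b1 (13123), the oxysterol hydroxylase that follows CYP27A1, stood at 184, 230.0 and 101 CPM in S1pr2 shRNA livers 1 to 3, against 54.5, 195 and 85.1 CPM in scramble livers 1 to 3. The groups overlapped, and the highest scramble liver held 3.58 times the level of the lowest. The log2 fold change was 0.62 (SE 0.54, 95% interval -0.70 to 1.94, edgeR adjusted p = 0.547). It was 0.29 without scramble liver 1, 0.35 without S1pr2 shRNA liver 2 and 1.28 without scramble liver 2, and passed in none of these (edgeR adjusted p = 0.808, 0.812 and 0.1395).

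Baat (12012), whose product joins bile acids to taurine or glycine, was the most even enzyme in the scramble livers, at 329.5, 345 and 315 CPM in livers 1 to 3. The S1pr2 shRNA livers 1 to 3 stood on both sides of these, at 259, 294 and 365 CPM. Its log2 fold change was -0.11 (SE 0.16, 95% interval -0.47 to 0.25, edgeR adjusted p = 0.730). The sign turned to 0.03 on FPKM with a pseudocount of 0.1, a scale on which the all-gene median was 0.16. Without S1pr2 shRNA liver 3 the log2 fold change of Baat was -0.26, and without S1pr2 shRNA liver 1 it was near 0.

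Neither nuclear receptor gene passed the test; Nr1h4 was lower in every S1pr2 shRNA liver by CPM, and Nr0b2 was spread widely. Nr1h4 (20186), which encodes FXR, stood at 109, 131 and 145 CPM in S1pr2 shRNA livers 1 to 3, against 148, 197 and 158 CPM in scramble livers 1 to 3. The highest S1pr2 shRNA liver was just under the lowest scramble liver on this scale, whereas on FPKM the groups overlapped (61.2, 63.0 and 72.8 FPKM in the S1pr2 shRNA livers, against 69.9, 88.6 and 74.0 FPKM in the scramble livers). The log2 fold change was -0.38 (SE 0.16, 95% interval -0.75 to -0.02, edgeR adjusted p = 0.182), and no other setting brought it past the threshold. On FPKM with a pseudocount of 0.1 it was -0.23, a scale on which the all-gene median was 0.16. The tables give Nr1h4 3 transcripts, and its mean transcript length ranged over 2036 to 2053 bases in the S1pr2 shRNA livers and 2035 to 2044 bases in the scramble livers.

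Nr0b2 (23957), which encodes the repressor SHP, stood at 15.1, 36.8 and 45.0 CPM in S1pr2 shRNA livers 1 to 3, against 14.4, 17.4 and 29.8 CPM in scramble livers 1 to 3. S1pr2 shRNA livers 2 and 3 were above all scramble livers, and S1pr2 shRNA liver 1 was level with the lowest of them. It rested on 298, 601 and 768 counts in the S1pr2 shRNA livers and 235, 280 and 492 counts in the scramble livers. The log2 fold change was 0.65 (SE 0.47, 95% interval -0.49 to 1.79, edgeR adjusted p = 0.459). It was 0.32 without S1pr2 shRNA liver 3, 0.99 without S1pr2 shRNA liver 1 and 1.02 without scramble liver 3, and passed in none of these (edgeR adjusted p = 0.770, 0.143 and 0.283).

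Of the receptor pair for FGF15, Klb fell and Fgfr4 did not pass the test. Klb (83379), which encodes the co-receptor beta-Klotho, stood at 34.2, 35.1 and 39.4 CPM in S1pr2 shRNA livers 1 to 3, against 49.8, 47.7 and 46.4 CPM in scramble livers 1 to 3. Both groups were tight and well apart. The means were 36.2 ± 2.78 CPM in S1pr2 shRNA and 48.0 ± 1.74 CPM in scramble livers (SD, n = 3 each). Klb fell by 0.40 on the log2 scale, to 0.755 of the scramble level (SE 0.10, 95% interval -0.63 to -0.18, edgeR adjusted p = 0.0452). The deposited FPKM were also apart, at 11.3, 9.95 and 11.6 in the S1pr2 shRNA livers and 13.9, 12.7 and 12.8 in the scramble livers. The call lay close to the threshold. It was lost whichever liver was left out (edgeR adjusted p = 0.0636 to 0.169), with upper-quartile factors, with no count filter, with the replicate number as a block (edgeR adjusted p = 0.0785) and on FPKM, and it held with DESeq2 (adjusted p = 0.0211) and limma-voom (adjusted p = 0.0476). Over the 17 other settings the adjusted p of edgeR, DESeq2 or limma ran from 0.0211 to 0.215, and the sign was negative in all of them. On FPKM with a pseudocount of 0.1 the log2 fold change of Klb was -0.26 and the all-gene median 0.16.

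Fgfr4 (14186), which encodes the receptor itself, stood at 39.1, 47.3 and 44.6 CPM in S1pr2 shRNA livers 1 to 3, against 34.4, 41.4 and 35.8 CPM in scramble livers 1 to 3. The groups overlapped through S1pr2 shRNA liver 1 and scramble liver 2 on this scale, but not on FPKM, at 14.2, 14.7 and 14.4 in the S1pr2 shRNA livers and 10.5, 12.1 and 10.8 in the scramble livers. The log2 fold change was 0.23 (SE 0.12, 95% interval -0.04 to 0.50, edgeR adjusted p = 0.274), and on FPKM with a pseudocount of 0.1 it was 0.38 (limma adjusted p = 0.0661). On that FPKM scale the all-gene median was 0.16.

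Ratios between genes of the same liver do not depend on how the libraries are scaled. The ratio of Fgfr4 to Klb, from FPKM, was 1.25, 1.48 and 1.24 in S1pr2 shRNA livers 1 to 3, against 0.755, 0.950 and 0.846 in scramble livers 1 to 3. Receptor exceeded co-receptor in every S1pr2 shRNA liver and was below it in every scramble liver, a difference of 0.64 in the mean log2 ratio. The exact two-sided permutation test gave p = 0.1, the smallest that 20 assignments of 3 against 3 allow (0.4 after Benjamini-Hochberg adjustment over 4 ratios). The ratios of Cyp8b1, Cyp7b1 and Cyp27a1 to Cyp7a1 overlapped between the groups. For Cyp8b1 the mean log2 ratio was 4.03 ± 1.14 in the S1pr2 shRNA and 4.32 ± 0.33 in the scramble livers (SD, n = 3 each; exact permutation p = 1.0). For Cyp7b1 it was 2.69 ± 0.73 in the S1pr2 shRNA and 1.88 ± 1.29 in the scramble livers (exact permutation p = 0.6). For Cyp27a1 it was 4.21 ± 0.51 in the S1pr2 shRNA and 3.74 ± 0.84 in the scramble livers (exact permutation p = 0.6). Without scramble liver 1 the differences of 0.80 for Cyp7b1 and 0.47 for Cyp27a1 were 0.07 and 0.02.

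**Figure D3:**
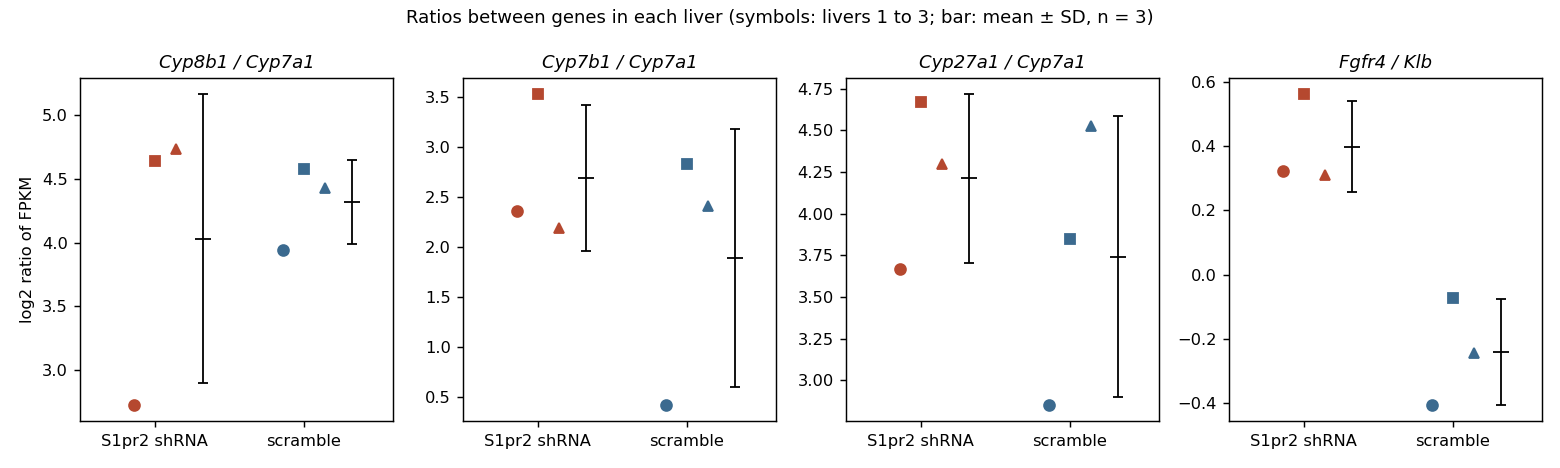
Log2 ratio of deposited FPKM between pairs of genes in each liver, with S1pr2 shRNA livers on the left and scramble livers on the right of each panel; bars give the mean ± SD (n = 3 each). The ratio of Fgfr4 to Klb is above 0 in the 3 S1pr2 shRNA livers and below 0 in the 3 scramble livers, while the ratios to Cyp7a1 overlap.

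The genes differed widely in how far livers of one group spread. Klb, Cyp27a1, Fgfr4, Nr1h4 and Baat had coefficients of variation between 3.63 and 17.6% in either group. Cyp7a1, Cyp8b1, Cyp7b1 and Nr0b2 had 33.0, 41.6, 37.9 and 47.9% in the S1pr2 shRNA livers and 44.3, 31.6, 66.3 and 39.7% in the scramble livers. Counting error was 1.12 to 5.46% for these 4 genes, well under their spread between livers. In a pattern looked at after the values were seen, the 3 livers with the most Cyp7a1 (scramble livers 1 and 2 and S1pr2 shRNA liver 1) were the 3 with the least Nr0b2, and they came from both groups. Among the other 3 livers both genes stood in the same order, lowest in scramble liver 3 and highest in S1pr2 shRNA liver 3. Cyp7b1 was lowest in scramble liver 1 and Cyp8b1 in S1pr2 shRNA liver 1.

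**Figure D4:**
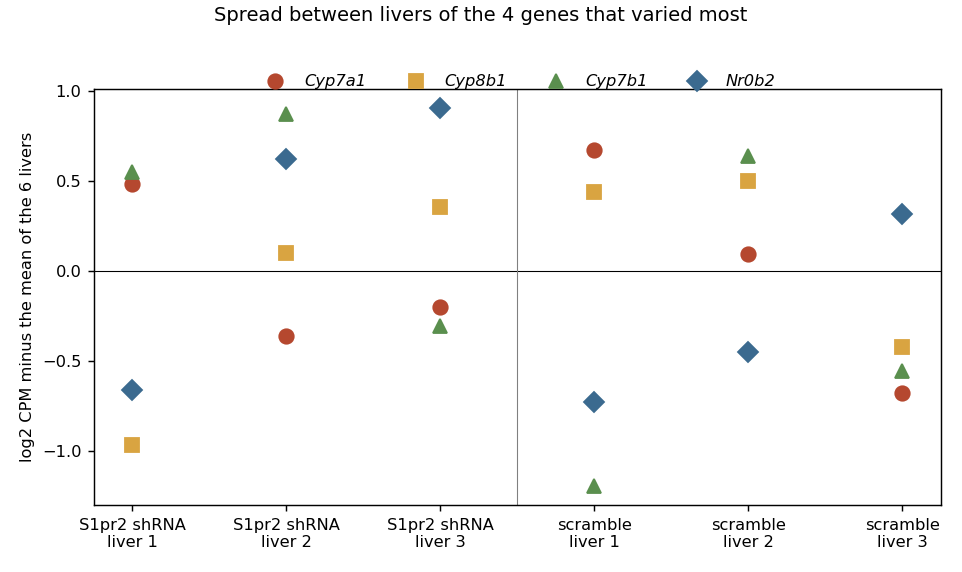
Log2 CPM of Cyp7a1, Cyp8b1, Cyp7b1 and Nr0b2 in each liver, each gene centred on its mean over the 6 livers, with S1pr2 shRNA livers on the left and scramble livers on the right. Cyp7a1 is above its mean and Nr0b2 below its mean in S1pr2 shRNA liver 1 and scramble livers 1 and 2, and the reverse holds in the other 3 livers.

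Genes with the most similar profile over the 6 livers were found by the root mean square difference of centred log2 CPM among 11931 named genes. For Klb they were Tmem30a (0.02 log2 units), Tm9sf3 (0.02) and Rnf149 (0.03). For Cyp7a1 the nearest were Plk3 (0.09), Cpeb1 (0.13) and Cdk6 (0.14), for Cyp8b1 Trdmt1 (0.15), Dbp (0.17) and Zmat1 (0.18), and for Nr0b2 Bbc3 (0.21), Cabcoco1 (0.22) and Sh3tc2 (0.22). Several of these were low, so their profiles rest on few counts. Over the 6 livers Sh3tc2 stood at 0.20 to 1.17 CPM, Cabcoco1 at 1.37 to 3.43 CPM and Cdk6 at 1.59 to 3.43 CPM. The distances were not scaled to a gene's own spread, so those of the widely spread Nr0b2 and the steady Klb cannot be compared. With 6 livers such likeness describes these samples only.

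Start-site sequences, from 250 bases before to 50 bases after the start, were held in RefSeq tables of build GRCm38.p6 for 7 of the 10 genes. They are shown for the gene that passed the test (Klb), the gene next to the threshold (Hsd3b7) and the one that held a searched motif (Nr1h4), each 5′ to 3′ on the strand of the gene, with the motif in capitals. They lie at chr5:65348161-65348460 (+ strand), chr7:127800359-127800658 (+ strand) and chr10:89506609-89506908 (- strand), while the submitters' processing notes name mm9 for the deposited values.
Klb: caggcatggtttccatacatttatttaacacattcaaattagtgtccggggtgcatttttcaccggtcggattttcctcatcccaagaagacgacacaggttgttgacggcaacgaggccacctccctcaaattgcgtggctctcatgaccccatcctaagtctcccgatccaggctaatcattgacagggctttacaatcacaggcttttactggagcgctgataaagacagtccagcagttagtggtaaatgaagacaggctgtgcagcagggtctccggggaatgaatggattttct
Hsd3b7: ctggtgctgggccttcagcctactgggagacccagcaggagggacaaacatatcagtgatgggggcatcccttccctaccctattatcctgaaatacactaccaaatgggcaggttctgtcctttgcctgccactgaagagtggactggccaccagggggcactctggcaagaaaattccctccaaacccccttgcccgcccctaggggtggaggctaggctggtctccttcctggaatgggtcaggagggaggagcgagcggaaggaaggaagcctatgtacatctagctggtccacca
Nr1h4: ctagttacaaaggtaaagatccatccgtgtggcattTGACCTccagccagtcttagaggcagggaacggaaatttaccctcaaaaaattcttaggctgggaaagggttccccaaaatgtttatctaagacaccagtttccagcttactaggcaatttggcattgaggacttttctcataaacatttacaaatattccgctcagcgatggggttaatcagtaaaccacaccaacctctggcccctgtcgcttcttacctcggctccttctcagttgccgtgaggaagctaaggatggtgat

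The motifs searched on both strands were AGGTCA, the core hexamer common to FXR, RXR, LRH-1 and HNF4A elements (in 16.3% of 32851 start-site windows), AAGGTCA, its extended form bound by LRH-1 (4.72%; it contains the first), CAAAGGTCA, a part of HNF4A elements (0.478%; it contains both), and TGTTCT, a part of the glucocorticoid receptor element (19%). Of the 7 windows only that of Nr1h4 held any: AGGTCA on the opposite strand, shown as its reverse complement at position -214 relative to the start. The GC content was 48.3% for Klb, 57.7% for Hsd3b7 and 45.7% for Nr1h4, beside a median of 52.7% over all windows. A missing match says only that these letters are not in this window.

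Around the 10 genes, the other enzymes of the pathway had calls in both directions. Of 17 tested genes for further synthesis, side chain shortening and conjugation, 1 rose, 1 fell and 15 did not pass (median log2 fold change -0.03). Cyp39a1, an oxysterol hydroxylase, fell to 109, 140 and 128 CPM in S1pr2 shRNA livers 1 to 3, against 290, 219 and 265 CPM in scramble livers 1 to 3 (log2 fold change -1.04, SE 0.15, edgeR adjusted p = 0.00998). The lowest scramble liver was well above the highest S1pr2 shRNA liver. Akr1c6, an aldo-keto reductase gene, rose to 721, 750 and 784 CPM in the S1pr2 shRNA livers, against 382, 402 and 512 CPM in the scramble livers (0.80, SE 0.16, edgeR adjusted p = 0.0253). Its call was lost without S1pr2 shRNA liver 2 or 3 or scramble liver 1 or 2, where 0 genes of the list rose. Amacr, the peroxisomal racemase gene (0.40, edgeR adjusted p = 0.0653), Akr1c14 (0.47, edgeR adjusted p = 0.127) and Cyp2a12 (-0.60, edgeR adjusted p = 0.0842), whose product re-hydroxylates secondary bile acids in mice, did not pass. Akr1c6 and Cyp2a12 had fractional counts in 6 libraries and Akr1c14 in 3, so their values are uncertain.

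Of 14 tested genes for transport of bile acids and biliary lipids, 3 rose, 0 fell and 11 did not pass (median 0.31). Over all genes 3.02% rose and the median was 0.01. With 1 liver left out the transport median ran from 0.14 (without S1pr2 shRNA liver 1) to 0.47 (without scramble liver 3). Abcc3, a basolateral exporter gene, rose to 325, 245 and 215 CPM in S1pr2 shRNA livers 1 to 3, against 49.0, 76.9 and 70.0 CPM in scramble livers 1 to 3 (2.00, SE 0.22, edgeR adjusted p = 0.00524). Abcg5 (0.90, SE 0.14) and Abcg8 (0.79, SE 0.19), the paired subunits of the canalicular sterol exporter, rose as well (edgeR adjusted p = 0.0131 and 0.0449). Without S1pr2 shRNA liver 2 or scramble liver 3, 1 gene of the list passed. The canalicular exporter gene Abcc2 (-0.80, edgeR adjusted p = 0.0514), the uptake carrier gene Slco1b2 (-0.40, edgeR adjusted p = 0.139) and Ephx1 (0.72, edgeR adjusted p = 0.0937; fractional counts in 1 library) did not pass.

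Known FXR-induced genes did not follow one direction. Of 14 tested, 1 rose, 0 fell and 13 did not pass, with a median of -0.11. The riser was Osgin1, a stress-responsive gene, at 171, 143 and 170 CPM in S1pr2 shRNA livers 1 to 3, against 43.3, 86.8 and 51.0 CPM in scramble livers 1 to 3 (1.42, SE 0.26, edgeR adjusted p = 0.0221). Its call was lost whichever S1pr2 shRNA liver was left out. Abcc2, also on this list, Pltp (0.74, edgeR adjusted p = 0.0826; fractional counts in 6 libraries) and Sdc1 (-0.25, edgeR adjusted p = 0.505) did not pass. The bile salt export pump gene Abcb11 and the phospholipid exporter gene Abcb4, named here after their values were seen, had 0.18 (edgeR adjusted p = 0.641) and 0.06 (edgeR adjusted p = 0.897; fractional counts in 6 libraries).

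Factors that act on Cyp7a1 or Cyp8b1 and the kinase chain behind FGFR4 had no member past the edgeR test. Among 18 regulators, 0 passed (2 at an unadjusted p under 0.05, 0 with limma-voom and 1 with DESeq2; median -0.08). Bhlhe40, a clock-linked repressor, had the smallest p (-1.20, edgeR adjusted p = 0.0877), followed by Nr1d1, the gene of REV-ERB alpha (0.68, edgeR adjusted p = 0.173), and Hnf4a (-0.36, edgeR adjusted p = 0.251). Among 15 genes of the FGF receptor chain, 0 passed (3 at an unadjusted p under 0.05, 0 with limma-voom and 1 with DESeq2; median -0.03). Map2k2, a MEK gene, had -0.42 (edgeR adjusted p = 0.0577; fractional counts in 6 libraries), the Ras exchange factor gene Sos1 -0.41 (edgeR adjusted p = 0.0830) and Fgfr1 0.70 (edgeR adjusted p = 0.199). Of 4 tested genes for other bile acid receptors and the S1PR2 branch, S1pr2 itself fell, while Sphk2 (0.17, edgeR adjusted p = 0.685), Nr1i3 (0.05, edgeR adjusted p = 0.863) and Nr1i2 (-0.07, edgeR adjusted p = 0.925) did not pass.

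**Figure D5:**
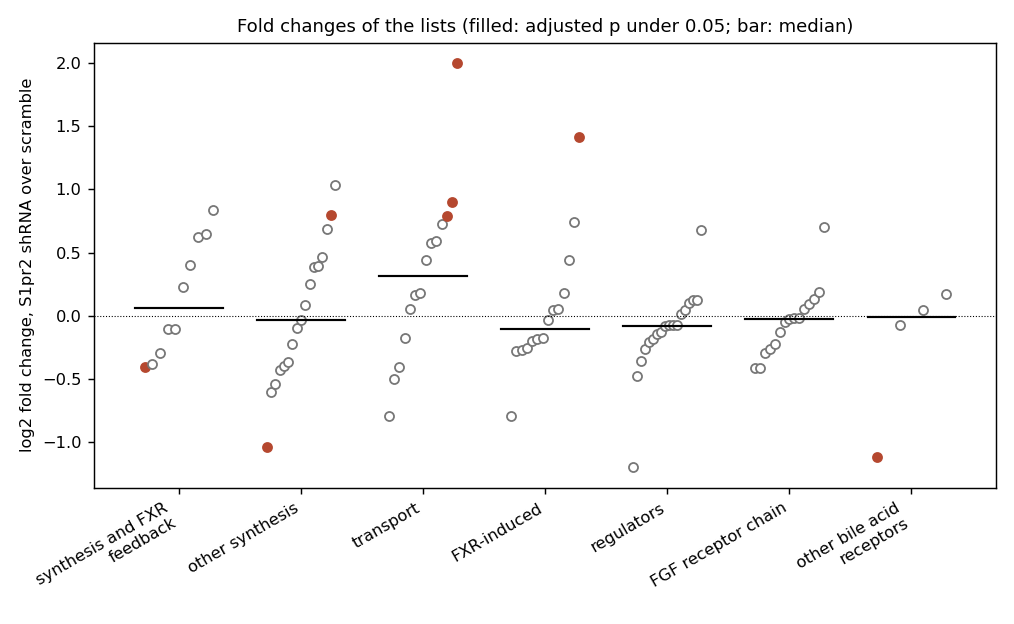
Log2 fold change, S1pr2 shRNA over scramble, of every tested gene of the pathway and of the lists around it; filled points passed the edgeR test and bars are list medians. The members' median is 0.06 and that of transport genes 0.31, beside 0.01 over all genes tested, and 3 of the 14 transport genes are filled.

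Of the markers of other cell types, only the endothelial and lymphocyte sums were apart between the groups. Endothelial markers had 4 of 10 genes past the test, all higher, with a summed level of 357 to 386 CPM in the S1pr2 shRNA and 268 to 308 CPM in the scramble livers. In this list 9 fold changes were above 0 and 1 below, that of Lyve1 (-0.83, edgeR adjusted p = 0.2275). Fcgr2b, 1 of the 4 past the test, had fractional counts in 6 libraries, so its value is uncertain. The sums of cholangiocyte markers were 69.6 to 134 CPM in S1pr2 shRNA and 52.0 to 79.9 CPM in scramble livers (1 of 8 rose). Macrophage markers summed to 182 to 355 CPM in S1pr2 shRNA and 129 to 232 CPM in scramble livers (0 of 10; 1 with DESeq2, 0 with limma-voom and 1 at an unadjusted p under 0.05), and stellate markers to 338 to 542 CPM in S1pr2 shRNA and 222 to 517 CPM in scramble livers (0 of 10; 0 with DESeq2 or limma-voom and 1 at an unadjusted p under 0.05). Lymphocyte markers, with 1 gene tested and not passing, summed to 4.33 to 7.13 CPM in S1pr2 shRNA and 1.10 to 3.09 CPM in scramble livers. The cholangiocyte, macrophage and stellate sums overlapped between the groups, and S1pr2 shRNA liver 1 was the highest in cholangiocyte, macrophage, stellate and lymphocyte markers. Hepatocyte markers summed to 78132 to 115310 CPM in the S1pr2 shRNA and 120900 to 153280 CPM in the scramble livers (0 of 7 passed; 3 with DESeq2, 0 with limma-voom and 3 at an unadjusted p under 0.05). Most of that sum was Alb (log2 fold change -0.59), while Apoa1, on the same list, was higher in every S1pr2 shRNA liver (1.08). With each gene weighted equally, the list averaged -0.37, 0.05 and -0.02 log2 units relative to the scramble mean in S1pr2 shRNA livers 1 to 3 and -0.24, 0.17 and 0.08 in scramble livers 1 to 3, which overlap. No marker found in the tables was at 0 in every liver. The part of these marker levels in the values of the 10 genes was not tested.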

How the data were processed

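Each library came as 1 table of genes with, per the file headers, an expected count, an FPKM value and a mean transcript length. Expected counts were estimated by the authors and deposited without scaling to depth, and the deposited FPKM were scaled by the authors to transcript length and library size. Other values are in bases. The submitters' processing notes list RSEM 1.2.12, DESeq2, Bowtie2 and HISAT2, and mm9 as build, without roles; read filters and strand handling are not stated there. Genes without a symbol carried 0.204 to 0.255% of counts and stayed under their gene ID.

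Counts were rounded, filtered with filterByExpr (minimum count 10; 12230 genes kept), scaled by TMM and compared with the edgeR 4.0.16 quasi-likelihood test (robust, group only, two-sided, R 4.3.3), with Benjamini-Hochberg adjustment over all genes tested; DESeq2 1.42.0 and limma 3.58.1 served as alternatives. The fits were tested on simulated data with the same relative spread beyond counting error for every gene and with changes larger than that of Klb. That setting does not cover genes as widely spread as Cyp7b1 or Nr0b2. All 15 pairs of libraries differed (chi-square per degree of freedom 20.1 to 193). Depth was 16558775 to 17410160 counts. Replicate numbers were not treated as pairs. The 10 genes and the lists were chosen with earlier results of these data known. Named were all 10 genes, every called list gene, up to 3 others per list by p, and the 3 nearest profiles for 4 genes. Ratios used an exact permutation test. Another planned motif, beside those given, is not reported here.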

Additional observations from a re-analysis of the deposited data

How the results depend on the processing

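Each of the 10 genes had at least 235 counts per liver, and 3 livers per group limit the precision. Of all genes, 1461 were called with DESeq2 (616 rose, 845 fell), 615 on FPKM without a filter, and 231 (without S1pr2 shRNA liver 2) to 643 (without S1pr2 shRNA liver 1) with 1 liver left out, against 937 (369 rose, 568 fell); upper-quartile factors gave 506 rises and 476 falls, and FPKM with a pseudocount of 0.1 gave 608 and 265, where the median of all genes was 0.16. Of the 10 genes, 2 were called with DESeq2 and 2 on FPKM with a pseudocount of 0.1; leaving out a liver left 0 to 1, the 1 being Hsd3b7 without S1pr2 shRNA liver 1. Klb had -0.34 with upper-quartile factors, -0.41 without a filter, -0.41 with the replicate block, -0.26 and -0.24 on FPKM (pseudocounts 0.1 and 1; -0.24 also unfiltered) and -0.48 to -0.37 with 1 liver left out, and no longer passed in any of these. Hsd3b7 passed with upper-quartile factors (0.90), no filter (0.84), DESeq2 (0.84), the replicate block (0.83), FPKM (0.98, 0.97 and, unfiltered, 0.97) and without S1pr2 shRNA liver 1 (0.70 to 1.00 over the livers left out). Cyp27a1 passed on FPKM with a pseudocount of 0.1 (0.56). S1pr2 lost its call under the replicate block (-1.11), on FPKM (-0.90, -0.54 and, unfiltered, -0.54) and without S1pr2 shRNA liver 2 or 3 or scramble liver 2 or 3 (-1.29 to -0.95 over all livers left out).

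Signs turned for genes that were not called: Cyp7a1 on FPKM (0.0907, 0.0815 and 0.0815) and over the livers left out (-0.41 to 0.26), Baat on FPKM (0.0265, 0.0264 and 0.0264), Cyp8b1 over the livers left out (-0.57 to 0.00245) and the ratio of Cyp8b1 to Cyp7a1 (-0.64 to 0.37). In the same FPKM settings the all-gene medians were 0.157, 0.102 and, unfiltered, 0.055. The ratios of Cyp7b1 (0.07 to 1.28) and Cyp27a1 (0.02 to 0.86) to Cyp7a1 and of Fgfr4 to Klb (0.56 to 0.72) stayed above 0 over the livers left out. The other synthesis list had 6 calls with DESeq2, 4 on FPKM with a pseudocount of 0.1 and 1 to 3 with 1 liver left out; the transport list 6 with DESeq2 and 1 to 3; the FXR-induced list 2 without a filter, 3 with DESeq2, 2 under the replicate block and 0 to 1; the regulators 1 with DESeq2 and 0 to 1 (the 1 without S1pr2 shRNA liver 1); the FGF receptor chain 1 with DESeq2 and 0 to 1 (the 1 without scramble liver 3); and the other receptors 0 under the replicate block and in the 3 FPKM settings, and 0 to 1. The cause of these shifts was not tested. With the replicate block 808 genes were called (342 rose, 466 fell), with 3 calls in the other synthesis list and 4 in the transport list. Deviations of same-numbered livers correlated at -0.06, 0.22 and -0.12, and not every liver correlated best with its own number. The labels do not say whether same-numbered livers belong together. With 3 livers per group these correlations cannot settle it.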

Other observations

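Further synthesis genes are named here after their values were seen, and none passed the test. Cyp2c70, which makes muricholic acids in mice, stood at 985, 795 and 602 CPM in S1pr2 shRNA livers 1 to 3, against 136, 530 and 495 CPM in scramble livers 1 to 3. Scramble liver 1 was far below the other 5 livers, and the log2 fold change was 1.04 (edgeR adjusted p = 0.277). The peroxisomal genes Acox2 (-0.43, edgeR adjusted p = 0.131) and Hsd17b4 (-0.40, edgeR adjusted p = 0.165), which shorten the side chain, were lower in every S1pr2 shRNA liver and did not pass. The same held for the peroxisomal genes Acot8 (-0.54, edgeR adjusted p = 0.190) and Abcd3 (-0.37, edgeR adjusted p = 0.208). Amacr, which acts before Acox2 and Hsd17b4, was higher in every S1pr2 shRNA liver. Scp2, another peroxisomal gene of side chain shortening (0.08, edgeR adjusted p = 0.853), and Sult2a8, a bile acid sulfotransferase gene in mice (0.68, edgeR adjusted p = 0.448), overlapped between the groups. Of all genes tested, 31.9% did not overlap.

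Cyp7b1 is a male-biased gene in mouse liver, and its levels stood beside those of other male-biased genes. Relative to the scramble mean, a list of 11 tested male-biased genes without Cyp7b1 averaged 1.21, 1.64 and 1.17 log2 units in S1pr2 shRNA livers 1 to 3 and -1.28, 1.03 and 0.25 in scramble livers 1 to 3. Scramble liver 1 was lowest and S1pr2 shRNA liver 2 highest in both this list and Cyp7b1. The list averages were higher in all S1pr2 shRNA livers than in all scramble livers, whereas Cyp7b1 overlapped. By summed CPM the list overlapped too, at 33679 to 40073 CPM in the S1pr2 shRNA and 12913 to 34010 CPM in the scramble livers. In the list 10 fold changes were above 0 and 1 below, that of Cyp2d9 (-0.65, edgeR adjusted p = 0.0680). In scramble liver 1, Hsd3b5 (0.18 CPM), Cspg5 (0.92 CPM) and Elovl3 (1.96 CPM) were low, so its average rests partly on few counts. In the list, 2 genes rose (Cyp4a12b and Susd4), 0 fell and 9 did not pass. Cyp4a12b had fractional counts in 6 libraries, so its value is uncertain. The part of this pattern in the Cyp7b1 values was not tested.

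Genes of the zones of the liver lobule, in which bile acid enzymes are unevenly placed, were also counted. Of 10 pericentral genes 2 rose (Lgr5 and Cyp1a2) and 8 did not pass, with a median log2 fold change of 0.25 by edgeR. In this list 6 fold changes were above 0 and 4 below. Lgr5, at 2.64 to 5.91 CPM over the 6 livers, and Cyp1a2 had fractional counts in 6 libraries, so their values are uncertain. Of 10 periportal genes 1 rose (Cdh1) and 9 did not pass, with a median of -0.39. Only the fold change of Cdh1 was above 0, and 9 were below. Over all genes tested, 7.66% passed and the median was 0.01. The part of these zone genes in the values of the 10 genes was not tested.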
